A study of Homo sapiens with 8 samples.

Results

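Aminoacyl-tRNA synthetases are the enzymes that join each amino acid to its transfer RNA. The 35 human synthetase genes described here were chosen by name, 19 for enzymes of the cytosol and 16 for those of mitochondria, with earlier results of these data known. On the arrays, 34 of the 35 were matched to a probe by accession (18 cytosolic and 16 mitochondrial, out of 19056 genes measured), and CARS1 was not. The MARS2 probe, for mitochondrial methionyl-tRNA synthetase, was well above background on none of the 8 arrays, with log2 levels of 3.11 to 4.42, so no ratio is given for it. The other 33 genes were well above background on all 8 arrays, and all counts below are over these 33, with 18 cytosolic and 15 mitochondrial members.

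Each synthetase reads one amino acid and the identity of its tRNAs, uses ATP to charge the tRNA, and thereby sets the genetic code during translation. Cytosolic and mitochondrial protein synthesis draw on separate sets of synthetases encoded by separate nuclear genes, except that GARS1 and KARS1 supply both compartments and that glutamine is charged in mitochondria by an indirect route through the amidotransferase that includes GATB. EPRS1 joins a glutamyl and a prolyl enzyme in one protein, FARSA and FARSB are the subunits of cytosolic phenylalanyl-tRNA synthetase, and several cytosolic enzymes sit in a multisynthetase complex held together by the scaffold proteins AIMP1, AIMP2 and EEF1E1. When amino acids run short or the endoplasmic reticulum is stressed, phosphorylation of the initiation factor eIF2 favours translation of ATF4, a transcription factor whose known targets include asparagine synthetase (ASNS) and many cytosolic synthetase genes.

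A549 is an established line of human lung carcinoma cells. The cells were exposed to the ethanol extract of D. sophia seeds (EEDS) at 0, 1.25, 5 or 20 μg/mL, or to helveticoside, a cardiac glycoside found in that extract, at 0, 3.75, 15 or 60 nM, and each series had its own vehicle control (dose 0). Cardiac glycosides bind and inhibit the sodium pump. RNA of 3 cultures was pooled for each dose and hybridized to 1 one-colour Agilent array, giving 8 arrays in all, so a single dose has no replicate error and no p-value, and precision is limited by the small number of arrays. The sample labels and the methods give different exposure times, so none is used here. In bulk RNA, fewer cells of a kind and less RNA per cell cannot be told apart.

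Median signals of the probe spots were 182 to 278 per array over local backgrounds of 27 to 34, and the scanner software called 54.5% to 64.9% of probes well above background. All 6 epithelial marker genes listed (KRT7, KRT8, KRT18, KRT19, EPCAM and CDH1) were well above background on all arrays, and of the 4 alveolar type II genes, SFTPA1, SFTPB and NKX2-1 were above it on none and SFTPC on 4. Of the markers of other cells, PTPRC and CD14 (blood), CDH5 (endothelium) and COL1A1 (fibroblast) were well above background on all 8 arrays, whereas CD3E, PECAM1, VWF, COL1A2 and PDGFRA were on none. Summed over the genes named here, the blood genes ran from 713 to 3645 linear units over the arrays, the endothelial genes from 137 to 234, the fibroblast genes from 171 to 586 and the epithelial genes from 695386 to 901594, and their part in the results below was not tested. The 2 vehicle controls differed from each other (helveticoside minus EEDS) by -0.94 to 1.0 on the log2 scale over the 33 genes, with an SD of 0.38 (0.65 over all genes), so each dose was set against the control of its own series.

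The RefSeq windows around the transcript starts (GRCh38.p14, 250 bases before to 50 after each start) held 30 of the 35 genes, and LARS1, VARS1, YARS1, AARS2 and VARS2 had no entry. They were searched on both strands for the core of the amino acid response element, which ATF4 binds with partners of the C/EBP family, written as TGATGCAA and, with any letter at the sixth place, as TGATGNAA (every TGATGCAA match is also a TGATGNAA match). TGATGNAA was in 3.62% of all 35116 windows and TGATGCAA in 0.866%. By gene, 8 of the 30 synthetase genes held TGATGNAA (AARS1, CARS1, GARS1, IARS1, MARS1, NARS1, TARS1 and YARS2), against 4.46% of all 27305 genes, and 6 of these 8, the exceptions being GARS1 and YARS2, held TGATGCAA, against 1.08% of all genes. All but YARS2 are genes of cytosolic enzymes. A match is a run of letters and not a shown binding site. The start used lay at the edge of the annotated gene in 70.9% of all windows. In GARS1 and TARS1 it lay inside the gene, which begins at chr7:30594735 and at chr5:33440696. The 250 bases before the start of AARS1 and IARS1, which both rose at the middle dose, follow, 5′ to 3′ along the strand of the gene, with the match in capitals (TTGCATCA is TGATGCAA read on the other strand):
AARS1, chr16:70289507-70289756, minus strand: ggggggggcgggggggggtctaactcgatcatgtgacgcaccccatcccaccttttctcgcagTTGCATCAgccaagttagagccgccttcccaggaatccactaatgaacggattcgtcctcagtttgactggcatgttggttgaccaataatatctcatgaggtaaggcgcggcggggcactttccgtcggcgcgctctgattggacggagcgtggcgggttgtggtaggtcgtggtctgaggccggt
IARS1, chr9:92293698-92293947, minus strand: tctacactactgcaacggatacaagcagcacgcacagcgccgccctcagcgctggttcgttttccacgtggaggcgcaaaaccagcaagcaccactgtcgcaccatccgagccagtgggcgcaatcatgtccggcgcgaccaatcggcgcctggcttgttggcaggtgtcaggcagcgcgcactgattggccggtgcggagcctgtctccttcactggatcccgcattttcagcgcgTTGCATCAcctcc

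In GARS1 (TTTCATCA) the match ended at base -26 from the start used and lay inside the annotated gene. In MARS1 the match spanned the start, in TARS1 it lay at bases 3 to 10 from the start used, and in NARS1 it was read in the opposite orientation at bases 15 to 22. These 30-base windows show it in the same notation:
GARS1, chr7:30594834-30594863, plus strand: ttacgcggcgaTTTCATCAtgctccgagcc
MARS1, chr12:57488053-57488082, plus strand: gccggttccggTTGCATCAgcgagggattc
TARS1, chr5:33440956-33440985, plus strand: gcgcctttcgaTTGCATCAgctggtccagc
NARS1, chr18:57621804-57621833, minus strand: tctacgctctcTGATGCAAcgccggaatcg

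With both agents, the cytosolic genes YARS1, GARS1, AARS1, SARS1 and MARS1 stood highest at the middle dose, YARS1, GARS1 and the mitochondrial gene LARS2 stood highest at the top dose, and QARS1 and FARSB in the cytosol and RARS2 and NARS2 in mitochondria stood lowest at the top dose. At the lowest dose none of the 33 genes differed from the control by more than 2-fold with either agent, where 4.22% of all genes were more than 2-fold higher and 3.66% lower with EEDS and 3.38% and 4.3% with helveticoside. The 33 genes were well above background on every array, whereas the shares of all genes, here and below, include dimmer genes. At 5 μg/mL EEDS, 4 of the 33 were more than 2-fold higher (7.36% of all genes) and 2 lower (8.5%). The top EEDS dose had 4 higher (13.4% of all genes) and 7 lower (14.6%). At 15 nM helveticoside, 5 were higher (7.08% of all genes) and 1 lower (8.06%), and at 60 nM, 4 were higher (10.8%) and 4 lower (12.8%). As shares of the 33 genes, those higher made up 12.1% and 15.2% at the middle doses of EEDS and helveticoside and 12.1% at both top doses, and those lower 21.2% and 12.1% at the top doses. When the arrays were instead scaled by their 75th percentile, 5 genes were higher and 1 lower at the middle EEDS dose, 6 and 5 at the top EEDS dose, and 6 and 4 at the top helveticoside dose, while the median of all genes moved to -0.21, -0.36 and -0.18 there. No share of all genes past 2-fold is given under that scaling, and the shares above do not apply to it. These counts therefore do not set the 33 genes apart from other genes.

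**Figure D1:**
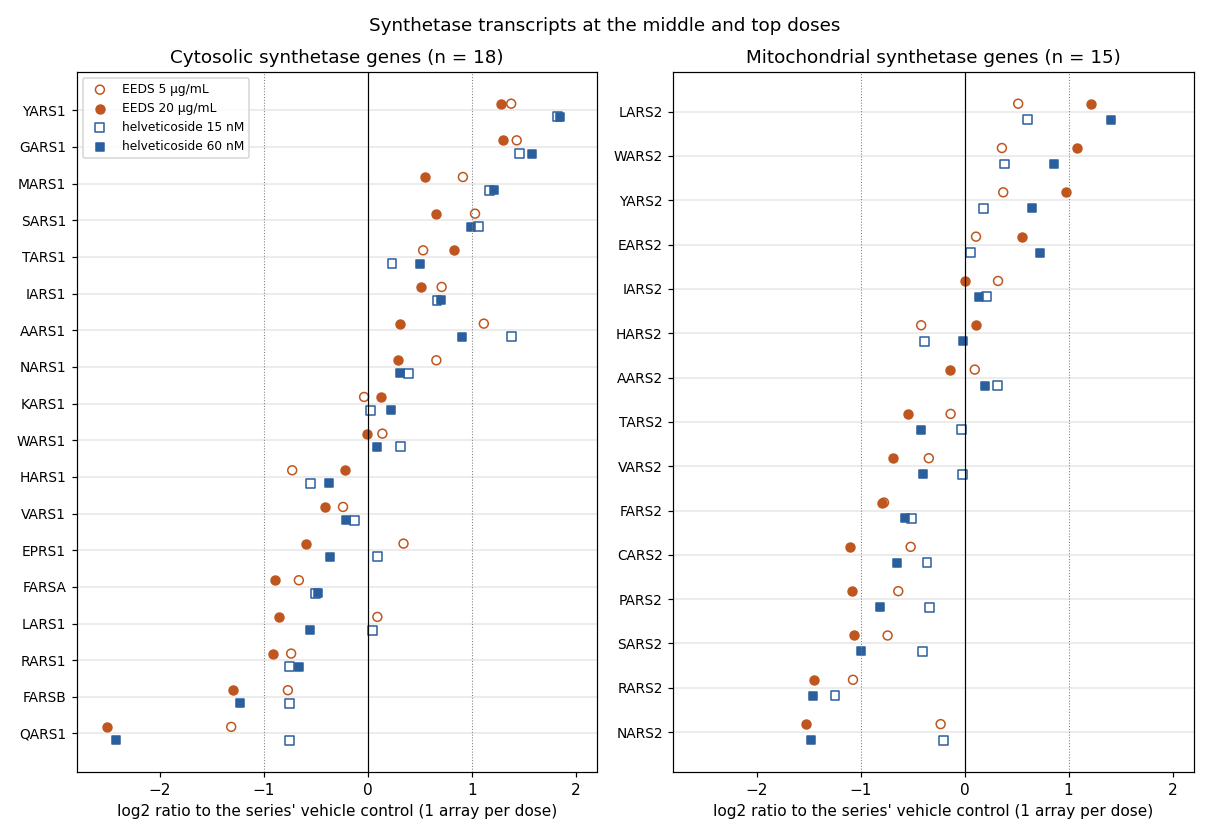
Log2 ratio of each of the 33 synthetase genes to the vehicle control of its series (x axis) at the middle (open symbols) and top dose (filled) of EEDS (circles) and helveticoside (squares), 1 array per point, with dotted lines at 2-fold. YARS1 and GARS1 lie past the upper 2-fold line in all 4 treated arrays shown, and QARS1 lies lowest, at -2.51 and -2.42 at the top doses.

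Among the cytosolic genes, YARS1, GARS1, SARS1 and MARS1 were higher than their controls at the middle and top doses of both agents. GARS1 was already 1.64-fold over the control at the lowest EEDS dose. YARS1 (tyrosyl-tRNA synthetase) was 2.60-fold over the control at 5 μg/mL EEDS and 3.54-fold at 15 nM helveticoside, the latter the largest ratio of the 33 genes at either middle dose. YARS1 had a log2 level of 9.72 without EEDS and of 10.0, 11.09 and 10.995 at its lowest, middle and top doses, and of 9.12 without helveticoside and 9.0, 10.95 and 10.97 at the doses of that agent. GARS1 had a log2 level of 11.03 without EEDS and of 11.74, 12.46 and 12.33 at its lowest, middle and top doses, and of 10.88 without helveticoside and 10.61, 12.34 and 12.45 at the doses of that agent. In both genes the 4 arrays of the middle and top doses lay above the 4 arrays of the controls and lowest doses. GARS1 encodes the glycyl enzyme of cytosol and mitochondria, and was 2.70-fold and 2.75-fold over its controls at the middle doses. SARS1 went from 13.38 on the control array to 13.22, 14.41 and 14.03 over the rising EEDS doses, and from 13.38 to 13.31, 14.44 and 14.37 over those of helveticoside. MARS1 went from 13.84 on the control array to 14.04, 14.75 and 14.39 over the rising EEDS doses, and from 13.27 to 12.98, 14.45 and 14.49 over those of helveticoside. SARS1 (seryl) and MARS1 (methionyl) likewise separated the middle and top doses from the rest, with 2.04-fold and 1.88-fold over the control at 5 μg/mL and 2.09-fold and 2.25-fold at 15 nM. A second MARS1 probe had log2 ratios of 1.03 and 0.92 at the middle and top doses of EEDS, and of 0.63 and 0.54 at those of helveticoside, against 1.17 and 1.21 for the first probe.

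AARS1 (alanyl) and IARS1 (isoleucyl), named after their values were seen, were likewise higher at the middle and top doses of both agents. The log2 levels of AARS1 were 10.91 in the EEDS control and 11.21, 12.02 and 11.21 at its rising doses, against 10.05 in the helveticoside control and 9.91, 11.43 and 10.95 at its rising doses. The log2 levels of IARS1 were 13.03 in the EEDS control and 12.95, 13.74 and 13.54 at its rising doses, against 13.29 in the helveticoside control and 13.15, 13.96 and 14.0 at its rising doses. The AARS1 level was highest at the middle dose of each agent and changed by -0.81 from there to the top dose of EEDS, to 0.31 above the control, whereas with helveticoside it stayed 0.91 above. All 3 IARS1 probes lay above their controls at the middle and top doses, with log2 ratios of 0.66 to 1.22 at the middle doses. NARS1 went from 12.02 on the control array to 12.27, 12.68 and 12.31 over the rising EEDS doses, and from 12.11 to 11.92, 12.50 and 12.42 over those of helveticoside. NARS1 (asparaginyl) also read highest at the middle doses, by 0.66 and 0.39 over its controls. TARS1 (threonyl) had log2 ratios of 0.51, 0.53 and 0.83 with EEDS and of -0.36, 0.23 and 0.50 with helveticoside.

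**Figure D2:**
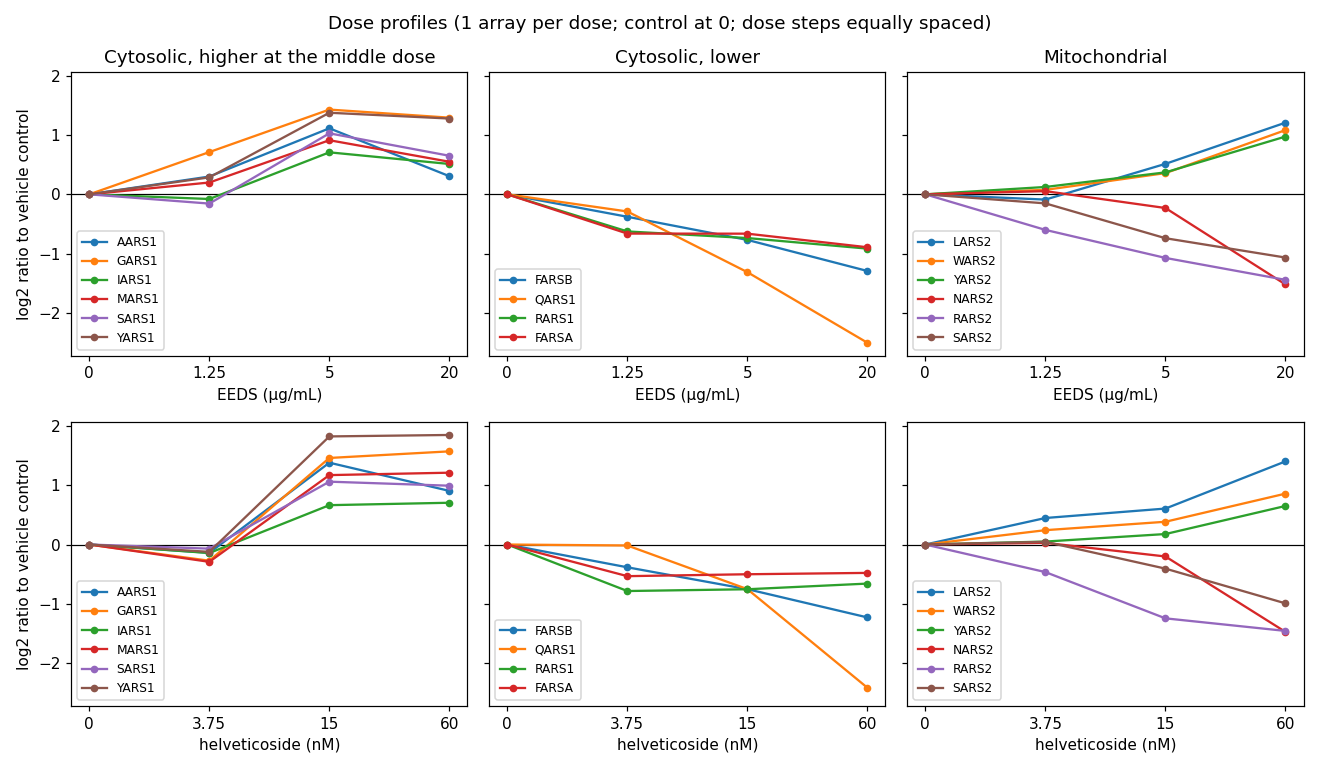
Log2 ratio to the vehicle control (y axis, control at 0) against the dose step of EEDS (upper panels) and helveticoside (lower panels), 1 array per point, for cytosolic genes higher at the middle dose, cytosolic genes that were lower, and mitochondrial genes. The first set levelled off or turned back after the middle dose, whereas QARS1 and NARS2 moved further down and LARS2, WARS2 and YARS2 further up between the middle and the top dose.

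QARS1 (glutaminyl-tRNA synthetase, a member of the multisynthetase complex) was the synthetase transcript with the largest difference in either series. QARS1 had a log2 level of 14.44 without EEDS and of 14.15, 13.12 and 11.93 at its lowest, middle and top doses, and of 14.29 without helveticoside and 14.27, 13.53 and 11.87 at the doses of that agent. It lay 5.68-fold below the control at the top dose of EEDS and 5.35-fold below at that of helveticoside, and both top-dose arrays were lower than every other array. FARSB went from 10.44 on the control array to 10.06, 9.67 and 9.14 over the rising EEDS doses, and from 10.07 to 9.68, 9.32 and 8.84 over those of helveticoside. FARSB, the beta subunit of phenylalanyl-tRNA synthetase, stepped down at each dose of each agent and ended 2.45-fold and 2.35-fold below its controls. FARSA, the other subunit, had ratios of -0.66, -0.66 and -0.89 with EEDS and of -0.53, -0.50 and -0.48 with helveticoside, so it differed little between doses. RARS1 went from 14.33 on the control array to 13.70, 13.59 and 13.41 over the rising EEDS doses, and from 14.39 to 13.60, 13.63 and 13.73 over those of helveticoside. RARS1 (arginyl), also of the complex, was lower than its control in all 6 treated arrays, with log2 ratios of -0.92 to -0.63 and with helveticoside it lay furthest below at the lowest dose. HARS1 (histidyl) was lowest at the middle dose of both agents, with log2 ratios of -0.73 and -0.55.

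Other cytosolic genes stayed within 2-fold of their controls. The log2 levels of EPRS1 were 12.90 in the EEDS control and 13.22, 13.24 and 12.30 at its rising doses, against 13.18 in the helveticoside control and 12.78, 13.27 and 12.82 at its rising doses. The log2 levels of LARS1 were 11.26 in the EEDS control and 10.97, 11.35 and 10.40 at its rising doses, against 12.26 in the helveticoside control and 11.99, 12.30 and 11.70 at its rising doses. EPRS1 and LARS1 (leucyl), both of the complex, were lower at the top than at the middle dose, with differences of -0.94 each for EEDS and of -0.45 and -0.60 for helveticoside. WARS1 went from 11.38 on the control array to 11.11, 11.52 and 11.37 over the rising EEDS doses, and from 10.79 to 10.79, 11.10 and 10.87 over those of helveticoside. WARS1 (tryptophanyl) ranged from -0.27 to 0.31 around its controls, KARS1 (lysyl, both compartments) from -0.27 to 0.22 and VARS1 (valyl) from -0.42 to 0.11. The 7 genes of the multisynthetase complex (EPRS1, IARS1, KARS1, LARS1, MARS1, QARS1 and RARS1) thus spanned ratios from -2.51 to 0.55 at the top dose of EEDS and from -2.42 to 1.21 at that of helveticoside, with medians of -0.60 and -0.36, and the 11 cytosolic genes outside it had medians of 0.29 and 0.31. By catalytic class, the medians at the top doses were -0.01 and 0.08 over 17 class I genes and -0.18 and -0.20 over 16 class II genes, beside 0.02 and -0.004 over all genes. EPRS1, which joins an enzyme of each class, was counted in class I.

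Among mitochondrial enzymes, 3 transcripts climbed with dose. LARS2 had a log2 level of 9.15 without EEDS and of 9.06, 9.67 and 10.36 at its lowest, middle and top doses, and of 8.97 without helveticoside and 9.41, 9.57 and 10.37 at the doses of that agent. WARS2 went from 8.54 on the control array to 8.62, 8.90 and 9.63 over the rising EEDS doses, and from 8.30 to 8.54, 8.68 and 9.16 over those of helveticoside. YARS2 went from 11.12 on the control array to 11.24, 11.49 and 12.10 over the rising EEDS doses, and from 11.14 to 11.19, 11.32 and 11.79 over those of helveticoside. LARS2 (leucyl), WARS2 (tryptophanyl) and YARS2 (tyrosyl) each had their highest array at the top dose, 2.31-, 2.12- and 1.97-fold over the EEDS control and 2.64-, 1.81- and 1.57-fold over the helveticoside control. Only at the top dose did EARS2 (glutamyl) rise clear of its control, with log2 ratios of 0.55 and 0.72 after -0.56 and -0.30 at the lowest doses.

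The mitochondrial genes that fell were more numerous. RARS2 had a log2 level of 12.64 without EEDS and of 12.04, 11.56 and 11.19 at its lowest, middle and top doses, and of 12.70 without helveticoside and 12.24, 11.46 and 11.24 at the doses of that agent. NARS2 had a log2 level of 9.90 without EEDS and of 9.95, 9.67 and 8.38 at its lowest, middle and top doses, and of 9.91 without helveticoside and 9.94, 9.71 and 8.44 at the doses of that agent. RARS2 (arginyl) was already 2.11-fold and 2.37-fold below its controls at the middle doses, whereas NARS2 (asparaginyl) had ratios of -0.23 to 0.05 below the top dose, where it was 2.87-fold and 2.78-fold below. SARS2 went from 11.75 on the control array to 11.59, 11.01 and 10.68 over the rising EEDS doses, and from 11.26 to 11.31, 10.85 and 10.27 over those of helveticoside. PARS2 went from 8.76 on the control array to 8.16, 8.12 and 7.68 over the rising EEDS doses, and from 8.48 to 8.09, 8.14 and 7.67 over those of helveticoside. CARS2 went from 14.14 on the control array to 13.54, 13.62 and 13.04 over the rising EEDS doses, and from 14.0 to 13.86, 13.63 and 13.35 over those of helveticoside. SARS2 (seryl), PARS2 (prolyl) and CARS2 (cysteinyl) had their lowest array at the top dose in both series, with log2 ratios of -1.07, -1.09 and -1.10 for EEDS and of -0.99, -0.81 and -0.65 for helveticoside. FARS2 (phenylalanyl) had log2 ratios of -0.89, -0.78 and -0.79 at the rising doses of EEDS and of -0.46, -0.51 and -0.58 with helveticoside. TARS2 and VARS2 were lowest at the top doses (-0.69 to -0.40), HARS2 was lowest at the middle doses (-0.42 and -0.39), and AARS2 and IARS2 stayed between -0.14 and 0.41.

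A slope per dose step was fitted with limma to all genes, each series having its own intercept and slope, 4 residual degrees of freedom and Benjamini-Hochberg adjustment over 19046 genes. With EEDS, 2 of the 33 synthetase genes rose (7.27% of all genes) and 6 fell (7.85%). The risers were WARS2, by 0.35 per step (SE 0.08, limma adjusted p = 0.0448), and YARS2, by 0.32 (SE 0.07, adjusted p = 0.0439), and LARS2 at 0.42 per step missed the threshold (adjusted p = 0.0502). The genes that fell were QARS1 (-0.85 per step, SE 0.18), RARS2 (-0.48, SE 0.06), FARSB (-0.43, SE 0.05), SARS2 (-0.38, SE 0.08), PARS2 (-0.33, SE 0.08) and CARS2 (-0.32, SE 0.07), with limma adjusted p-values of 0.0132 for FARSB to 0.0455 for PARS2. With helveticoside, none rose (5.48% of all genes) and 2 fell (5.8%), FARSB by 0.41 per step (SE 0.05, limma adjusted p = 0.0170) and RARS2 by 0.52 (SE 0.06, adjusted p = 0.0180). QARS1, at -0.80 per step (SE 0.18), came to an adjusted p of 0.0507 there. No trend call was left for either agent when the lowest, the middle or the top dose of each series was omitted, or when the 4 arrays of 1 series were fitted alone. Those fits have fewer residual degrees of freedom than the 4 of the main fit, so the loss does not show which dose carried a trend.

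A straight line does not describe genes that level off after the middle dose, so a second limma model, chosen after the data were seen, took the dose step as a factor common to both agents and the series as a block, with 3 residual degrees of freedom. In this model the 2 agents stand in for replicates, so it tests what both series shared. At the middle dose, 5 of the 33 genes rose (10.7% of all genes) and 10 fell (11.4%). All of the 5 that rose were cytosolic: YARS1 (1.60, SE 0.27, limma adjusted p = 0.0225), GARS1 (1.45, SE 0.33, adjusted p = 0.0419), AARS1 (1.25, SE 0.26, adjusted p = 0.0351), SARS1 (1.05, SE 0.10, adjusted p = 0.0135) and IARS1 (0.69, SE 0.09, adjusted p = 0.0154). MARS1, at 1.04, did not pass (SE 0.28, limma adjusted p = 0.0639), nor did NARS1, at 0.53 (adjusted p = 0.0607). The 10 that fell were FARSB, QARS1, RARS1, HARS1 and FARSA in the cytosol and RARS2, SARS2, HARS2, FARS2 and PARS2 in mitochondria, by 0.40 (HARS2) to 1.16 (RARS2) on the log2 scale.

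At the top dose, 8 of the 33 rose (18.4% of all genes) and 13 fell (19.8%) in the same limma model. Among the cytosolic genes 4 rose (YARS1, GARS1, SARS1 and IARS1) and 5 fell (QARS1, FARSB, RARS1, LARS1 and FARSA), and among the mitochondrial ones 4 rose (LARS2, WARS2, YARS2 and EARS2) and 8 fell (NARS2, RARS2, SARS2, PARS2, CARS2, FARS2, VARS2 and TARS2). QARS1 fell by 2.46 (SE 0.15, limma adjusted p = 0.00181), NARS2 by 1.5 (SE 0.08, adjusted p = 0.00165) and RARS2 by 1.45 (SE 0.09, adjusted p = 0.00185), while LARS2 rose by 1.31 (SE 0.15, adjusted p = 0.00447). AARS1 was 0.61 above the control and no longer passed (SE 0.26, limma adjusted p = 0.145). In all, the genes that rose made up 15.2% of the 33 at the middle dose and 24.2% at the top dose, and those that fell 30.3% and 39.4%. The step from the middle to the top dose itself was called in 6 genes, of which 4 fell (5.36% of all genes) and 2 rose (4.65%): QARS1 by -1.43, NARS2 by -1.28, LARS1 by -0.77, FARSB by -0.50, YARS2 by 0.54 and HARS2 by 0.45, with limma adjusted p-values of 0.0274 to 0.0473. None of these 6 calls was left without the lowest dose of each series, a fit with fewer residual degrees of freedom. At the lowest dose no synthetase gene was called, where 0.0105% of all genes rose and 0.0% fell, and 7 of the 33 had an unadjusted limma p under 0.05 (3647 of 19046 genes).

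At 5 μg/mL EEDS the 18 cytosolic genes had a median log2 ratio of 0.24 and the 15 mitochondrial genes one of -0.23, beside 0.01 over all genes. At 15 nM helveticoside the medians were 0.16 and -0.03 (all genes -0.04). At the top doses they were 0.06 and -0.54 for EEDS and 0.15 and -0.40 for helveticoside, and the cytosolic median at 20 μg/mL was -0.03 in the processed values that the authors deposited. The place of each list relative to all genes depended on the scaling. Minus the all-gene median, the top-dose cytosolic medians (EEDS, helveticoside) were 0.04 and 0.15, but 0.61 and 0.56 with scaling to the 75th percentile. The mitochondrial ones were -0.56 and -0.40, but -0.16 and -0.03 with that scaling. More than 2-fold higher at the middle doses were 4 (EEDS) and 5 (helveticoside) cytosolic genes (22.2% and 27.8%) and no mitochondrial gene. Over all genes these shares were 7.36% and 7.08%. RARS2 was more than 2-fold lower with each agent (6.67% of the mitochondrial genes) and QARS1, a cytosolic gene, with EEDS (5.56%). Over all genes 8.5% and 8.06% were lower. With 15 mitochondrial genes, counts of 0 and 1 lie near those shares. The largest change lay at the middle dose of both agents in 4 cytosolic genes and 1 mitochondrial gene, and at the top dose of both agents in 5 and 10. The genes of a list are not replicates, and the difference between the lists was not tested.

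For 27 of the 33 genes, the cytosolic and mitochondrial enzymes for the same amino acid were set against each other in 14 pairs, with EPRS1 against both EARS2 and PARS2 and FARSA against FARS2, while QARS1, GARS1, MARS1, KARS1, FARSB and CARS2 were in no pair. The cytosolic gene had the higher ratio in 11 of the 14 pairs at the middle EEDS dose and in 9 at the top one, with median differences of 0.36 and 0.38. With helveticoside it was higher in 10 pairs at each of 15 and 60 nM, with median differences of 0.35 and 0.51, but in 1 at 3.75 nM. With FARSB in place of FARSA, chosen after the data were seen, it was higher in 2, 9 and 9 pairs at the rising doses of helveticoside. SARS1 exceeded SARS2 by 1.77 at 5 μg/mL EEDS and by 1.47 at 15 nM helveticoside, and by 1.72 and 1.99 at the top doses, where NARS1 exceeded NARS2 by 1.81 and 1.78. Leucine went the other way, with LARS1 minus LARS2 at -2.06 and -1.96 at the top doses, as did tryptophan, with WARS1 minus WARS2 at -1.10 and -0.78. Both arginyl genes were lower than their controls, RARS2 more so than RARS1 by 0.53 and 0.80, and both tyrosyl genes were higher.

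**Figure D3:**
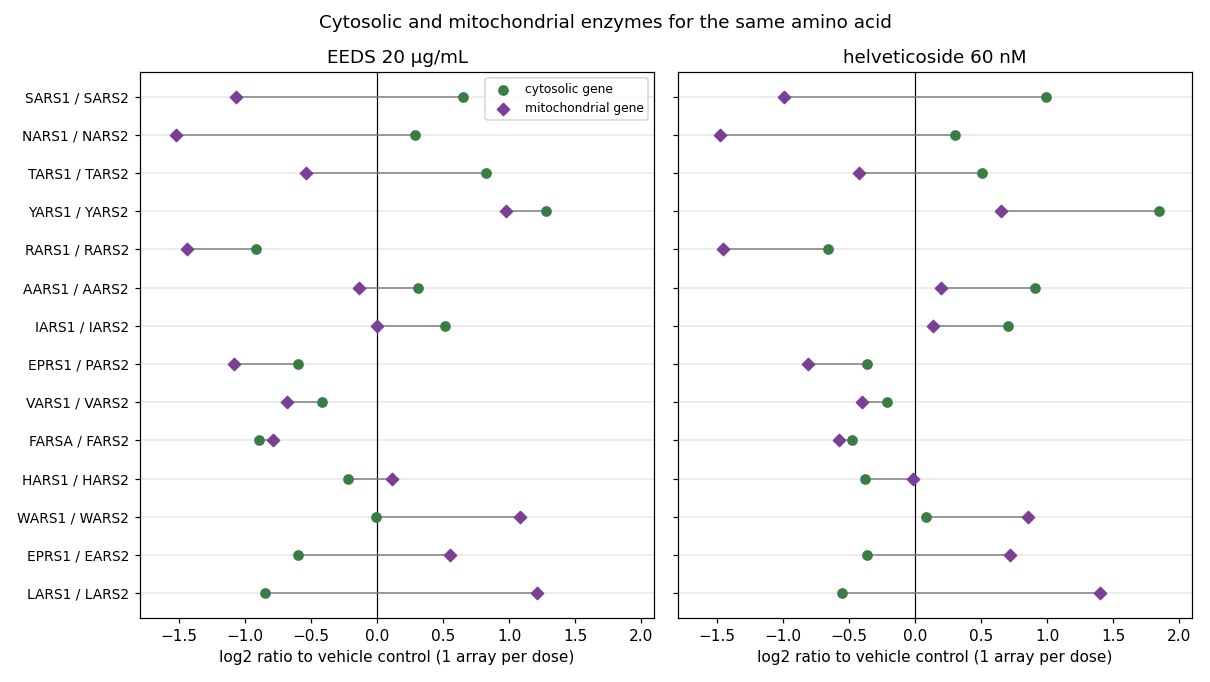
Log2 ratio to the vehicle control (x axis) at 20 μg/mL EEDS (left) and 60 nM helveticoside (right) for the cytosolic (circle) and mitochondrial (diamond) enzyme of each of 14 pairs, 1 array per point. The cytosolic gene lies to the right in 9 and 10 pairs, and the leucine, tryptophan, glutamate and histidine pairs lie the other way in both panels.

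At the middle and top doses, most of the genes lay on the same side of their control with both agents. At the middle dose, 32 of the 33 genes lay on the same side of their control with both agents (70.0% of all genes), and at the top dose 30 did (76.7%). At the lowest dose 18 did, where the share of all genes was not computed. The shares of all genes include genes not well above background, unlike the 33, so the comparison is not one of equal signal. The 2 series share no control array. The limma test of the difference between the helveticoside and EEDS slopes called none of the 33 genes, nor any other gene (0.0% higher and 0.0% lower), and at an unadjusted p under 0.05 it gave none of the 33 and 525 of 19046 genes. The largest slope difference among the 33 was that of MARS1, 0.27 per step steeper with helveticoside (limma adjusted p = 1.0). The slope was higher with helveticoside than with EEDS in 27 of the 33 genes (81.8%), against 47.9% of all genes. Among the cytosolic genes it was higher in 16 of 18 (88.9%). The genes of a list are not replicates, and this lean was not tested. The doses of the 2 agents are not matched amounts of one compound, and a missed threshold does not show that the agents act alike.

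The measured synthetase genes with the TGATGNAA letters were all above their controls at the middle dose. The 7 of them with a ratio (AARS1, GARS1, IARS1, MARS1, NARS1, TARS1 and YARS2) had log2 ratios of 0.37 to 1.43 at 5 μg/mL EEDS and of 0.18 to 1.46 at 15 nM helveticoside, with medians of 0.71 and 0.66. The 21 measured synthetase genes whose windows lacked the letters had medians of -0.42 and -0.34, and 7 and 8 of the 21 were above 0. Among those 21, the 9 cytosolic genes had medians of -0.66 and -0.50 and the 12 mitochondrial genes medians of -0.33 and -0.27, and SARS1 stood highest at 1.03 and 1.06. Over all measured genes whose windows held TGATGNAA, 533 at 5 μg/mL and 534 at 15 nM, the medians were 0.02 and -0.02, and 10.9% and 10.9% were more than 2-fold higher, against 7.3% and 6.82% of all measured genes with a window. Above 0 were 64.4% and 43.3% of them, against 54.7% and 42.3% of all measured genes with a window. Of the 7 synthetase genes with the letters, 2 and 3 were more than 2-fold higher at those doses. At the lowest doses, 6 of the 7 were above 0 with EEDS (64.4% of all genes with the letters) and 1 with helveticoside (59.6%). This search was made with the ratios known and is a description only.

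**Figure D4:**
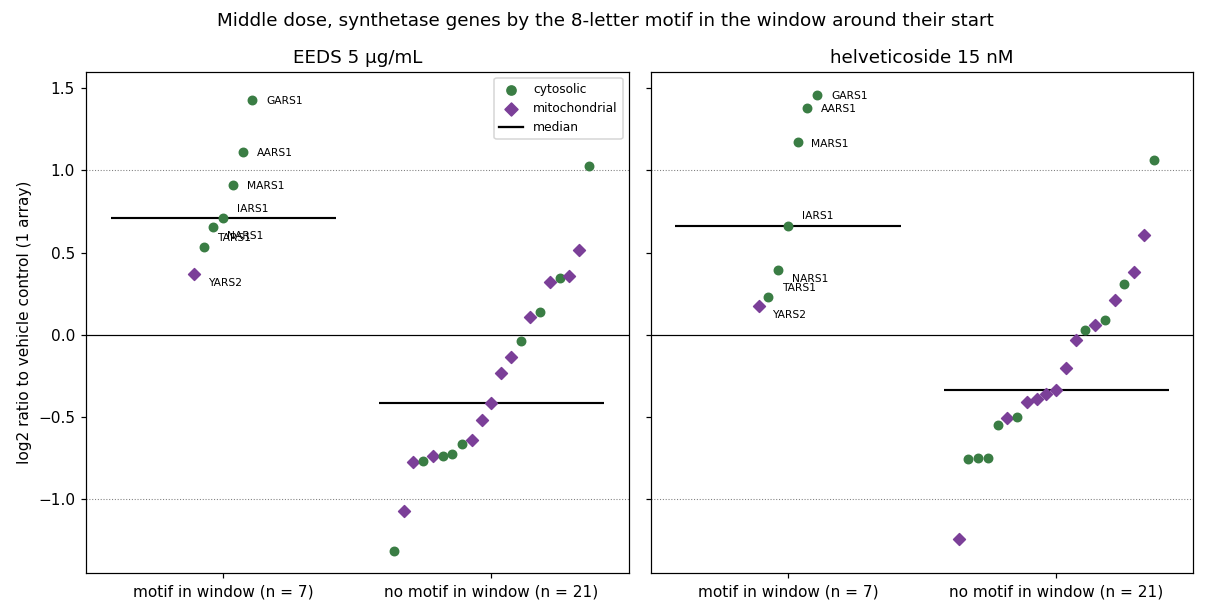
Log2 ratio to the vehicle control (y axis) at 5 μg/mL EEDS (left) and 15 nM helveticoside (right) of the 7 measured synthetase genes with the motif in the window around their start and the 21 without, cytosolic as circles and mitochondrial as diamonds, 1 array per point. All 7 genes with the motif lie above 0, and the black lines mark the medians (0.71 and -0.42, 0.66 and -0.34).

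The genes that act beside the synthetases were taken from lists, and SESN2 and AARSD1 of these were not matched. Of the 3 scaffold genes of the multisynthetase complex, AIMP2 fell with both agents, with log2 ratios of -0.60, -0.77 and -1.79 at the rising doses of EEDS and of -0.44, -0.60 and -1.28 at those of helveticoside (limma trend adjusted p = 0.02 and 0.0455). AIMP1 had ratios of 1.06 and 0.60 at the top doses, and EEF1E1 of 0.27 and 0.18. Of 9 other charging and editing genes 3 fell in the limma trend of each agent (7.85% of all genes with EEDS and 5.8% with helveticoside) and none rose (7.27% and 5.48%). The 3 were GATB, of the mitochondrial amidotransferase (top-dose ratios -1.46 and -1.50), and DTD1 and DTD2, which clear mischarged D-amino acids from tRNA (-1.31 and -1.14, and -1.50 and -1.71). The same shares of all genes apply to the trend calls of the other lists.

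Among elongation factors, EEF2 alone of the 6 cytosolic genes fell in the limma trend of each agent (top-dose ratios -1.08 and -0.98), and EEF1A1, EEF1A2, EEF1B2, EEF1D and EEF1G lay between -0.31 and 0.20 there. Of 4 mitochondrial elongation genes, GFM1 rose with both agents (top-dose ratios 1.44 and 1.33) and TSFM fell (-1.04 and -0.77). Of 5 genes of tRNA maturation and export, ELAC2, which trims the 3′ end of tRNA precursors, rose with helveticoside (0.73 at 60 nM, limma trend adjusted p = 0.0407), and none was called with EEDS.

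In the amino acid response list, ASNS, PHGDH, PSAT1, CHAC1 and TRIB3 had their largest ratios at the middle dose, as AARS1 did. ASNS had log2 ratios of 1.37, 3.66 and 2.76 at the rising doses of EEDS and of 0.19, 3.29 and 3.05 at those of helveticoside, and rose at the middle step shared by both agents (limma adjusted p = 0.0135). PHGDH and PSAT1, enzymes of serine synthesis, had 2.19 and 2.22 at 5 μg/mL and 2.39 and 2.16 at 15 nM, and 0.64 and 0.59 at the top dose of EEDS and 1.46 and 1.10 at that of helveticoside. CHAC1, which degrades glutathione, had 3.57 and 3.82 at the middle doses and -0.21 and 2.27 at the top doses, and TRIB3, a pseudokinase induced by ATF4, had 2.0 and 2.12 and then 0.68 and 1.48. In contrast, DDIT3, a transcription factor of the stress response, was highest at the top dose, with 4.79 and 3.02. The ATF4 transcript itself had 0.63, 0.65 and 1.04 with EEDS and -0.09, 0.58 and 0.49 with helveticoside, and SLC7A11 and DDIT4, also known targets of ATF4, had -0.98 and -2.13 at 20 μg/mL and -1.06 each at 60 nM. At the lowest and middle doses DDIT4 had 0.89 and 0.55 with EEDS and 0.41 and 0.74 with helveticoside. SLC7A11 had -0.25 and -0.03 with EEDS there and -1.11 and -0.49 with helveticoside. Of the 11 genes of this list 4 rose (10.7% of all genes) and none fell (11.4%) at the middle step of the shared limma model. The 4 were ASNS, PHGDH, PSAT1 and CEBPB, whereas CHAC1, TRIB3 and DDIT3 missed the threshold (limma adjusted p = 0.0679, 0.0504 and 0.055). At the top step 5 rose (18.4% of all genes) and 2 fell (19.8%), and in the trend fit 1 (DDIT3, with EEDS) was called.

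**Figure D5:**
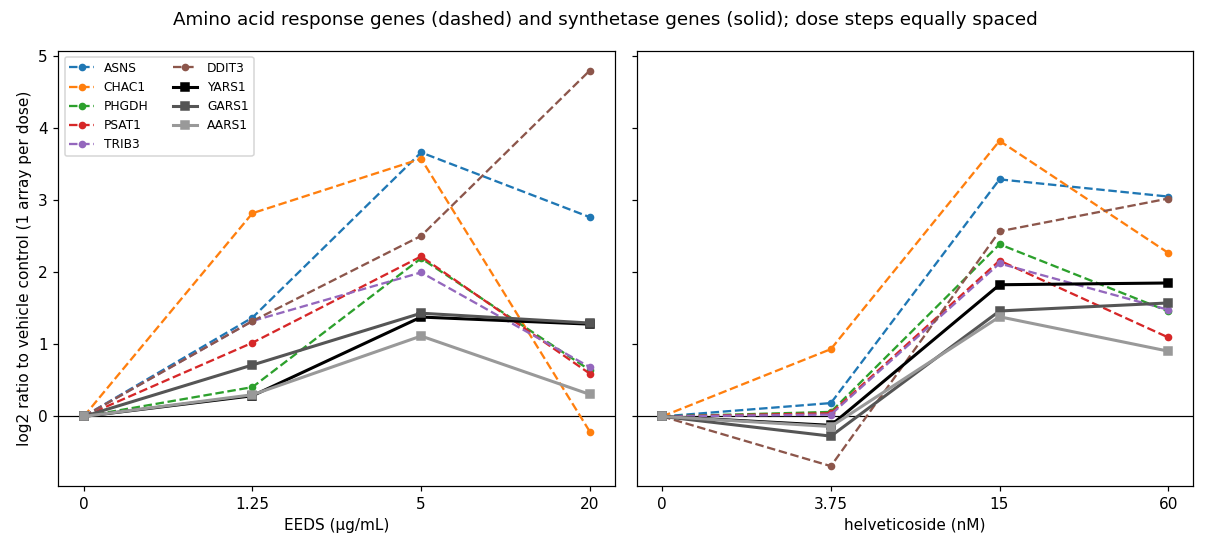
Log2 ratio to the vehicle control (y axis, control at 0) against the dose step of EEDS (left) and helveticoside (right) for 6 amino acid response genes (dashed) and the synthetase genes YARS1, GARS1 and AARS1 (solid), 1 array per point. ASNS, CHAC1, PHGDH, PSAT1, TRIB3 and AARS1 peak at the middle dose of both agents, DDIT3 at the top dose, and YARS1 and GARS1 stay near their middle-dose ratios at the top dose.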

How the data were processed

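A549 cells were profiled on 8 one-colour Agilent arrays, 4 in an EEDS series and 4 in a helveticoside series, and samples were grouped by agent and dose from their labels. The authors deposited, for each array, the scanner software's intensity per spot (median signal, local background, and a processed signal with the background subtracted) and its spot calls. A table of processed values came with it, on the intensity scale, which from its values is the background-subtracted median signal quantile-normalized within each series. The label field names Cy5, whereas the scanner columns carry the prefix of the green channel.

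Control and outlier spots were removed, spots of one probe were averaged by their processed signal, and quantile normalization over the 8 arrays and a log2 transformation followed. Quantile normalization forces equal distributions on all arrays, so a general shift of all transcripts cannot be seen. Of 34127 probes, 24812 were matched through their accession to 19056 genes of the RefSeq annotation of GRCh38.p14 (used for names), and the brightest probe stood for its gene in the 4797 genes with several. Genes under 1.4 times the local background on all arrays of a series were left out of the fits. Levels are not compared between genes, since probes differ in brightness.

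Dose trends used limma 3.58.1 with a trended, robust eBayes step (R 4.3.3, statmod 1.5.0) with Benjamini-Hochberg adjustment over all genes fitted and a threshold of 0.05, and the fits were tested on simulated data. Arrays about the fitted values stand in for replicates, so p-values do not measure the spread between pooled samples alone. The residual spread of the trend fit also holds departures from a straight line in dose. That of the shared step fit also holds differences between the 2 agents. The residual SD was 0.25 (median over the 33 genes) in the trend fit and 0.12 in the shared step fit. Python 3.11.15 with pandas 2.3.3 and numpy 2.4.6 gave the remaining values. The members, gene lists, promoter motif and tests were chosen with earlier results of these data known. Values on every array are given for members with a trend call or past 2-fold at a top dose and their partners in the other compartment, up to 12 cytosolic and 8 mitochondrial genes, plus AARS1 and IARS1. Related genes are named where called or past 2-fold at a top dose, up to 4 per list, and further ones with their values. The alternatives tried were other background corrections, scalings, filters, probe summaries, control arrays, fold thresholds, arrays left out and the deposited processed values. No column of per-sample values was left unused for want of a sample. Some listed marker and related genes are not reported here.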

Additional observations from a re-analysis of the deposited data

How the results depend on the processing

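With 1.5-fold in place of 2-fold, 7, 16 and 20 of the 33 genes were past the threshold at the rising doses of EEDS and 1, 11 and 18 at those of helveticoside. For the counts in this paragraph no share of all genes is given, so they do not set the 33 genes apart from other genes. With the other series' vehicle control, 2 genes were past 2-fold at the lowest dose of EEDS and 2 at that of helveticoside, the cytosolic median at 15 nM helveticoside was 0.423 and the mitochondrial median at 20 μg/mL EEDS was 0.039. The 8 EEDS trend calls became 0 without the lowest, the middle or the top dose of each series and 0 with the 4 arrays of the series alone, and the 2 helveticoside calls became 0 in each of these fits, which have fewer residual degrees of freedom. The helveticoside trend called 7 genes with the signal as scanned, 7 with normexp correction, 7 with scaling to the 75th percentile, 5 with the deposited processed values and 8 among genes well above background on all arrays. In the step shared by both agents, chosen after the data were seen, the lowest dose gave 1 call with the signal as scanned, 1 with normexp correction and 4 among genes well above background on all arrays, and the top against the middle dose gave 10, 10 and 13 in these fits and 0 without the lowest dose. The cause was not tested. In that model, 11 to 15 of the 15 genes called at the middle dose and 20 or 21 of the 21 called at the top dose were called again under each alternative, and the 11 were left without the lowest dose, where FARSA, HARS2, PARS2 and SARS2 were lost. None of the 13 synthetase genes recomputed singly at the top doses changed direction under any alternative run, and the related genes were not recomputed. Precision is limited by 1 array per dose and by signal over background for MARS2. No paired analysis was possible because the replicate number, the same on every array, pairs no samples (the block of the shared step is the series, not the replicate).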
